A study of Mus musculus with 6 samples.

Results

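The 10 genes described here belong to the BCL2 family, whose proteins set whether a cell dies by the mitochondrial route. They were picked by symbol from a table of 25124 gene rows, and each of the 10 had 1 row: the pro-survival genes Bcl2, Bcl2a1b, Bcl2a1d, Bcl2l1 and Mcl1, the pore-forming effectors Bax and Bak1, and the BH3-only genes Bcl2l11, Bbc3 and Pmaip1. The cells were colon macrophages from C57BL/6 mice aged 8 weeks, collected with a cell sorter. Of the 6 RNA-seq libraries, 3 came from wild type mice and 3 from transgenic mice that overexpress E4BP4 in macrophages. E4BP4, the product of Nfil3, is a transcription factor with a basic leucine zipper. Both genotypes had gone through the same colitis course: dextran sulfate sodium (DSS), which injures the gut epithelium, at 2.0% in drinking water for 7 days, plain water for 7 more, and collection on day 14. No group without DSS was analysed here. The labels do not name the promoter that drives the transgene, and the genotype field of transgenic replicates 2 and 3 ends the factor's name in another digit, so groups follow the sample titles. Nor do they say whether the libraries of a group are separate mice, so each p-value is set against library-to-library spread that may be technical.

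BCL2 family proteins meet at the outer mitochondrial membrane. Pro-survival members (BCL2, BCL-XL, MCL1, A1) bind and hold the effectors BAX and BAK, which otherwise form pores that release cytochrome c and start caspase activation. BH3-only proteins such as BIM, PUMA and NOXA bind into the groove of pro-survival members and free the effectors. Each prefers certain partners, as NOXA does MCL1 and A1. MCL1 is short-lived and is known to be needed for the survival of some myeloid cells. Whether the macrophages studied here depend on it was not tested.

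The 4 Bcl2a1 genes of the mouse are copies on chromosome 9, and their likeness limits what a read can tell. The coding sequences of Bcl2a1b and Bcl2a1d (516 bases without the stop codon, GENCODE M21) differ at 6 bases, an identity of 98.8%, and their longest identical stretch is 217 bases. Bcl2a1a differs from them at 11 and 7 bases. The first 60 coding bases are shown because 6 of the 12 positions that differ among these 3 genes lie there. Capitals mark those positions, 5′ to 3′, at chr9:89199360-89199419 (plus strand), chr9:88731660-88731719 (minus strand) and chr9:88957051-88957110 (plus strand), GRCm38.
Bcl2a1b: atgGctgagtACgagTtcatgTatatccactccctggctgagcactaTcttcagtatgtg
Bcl2a1d: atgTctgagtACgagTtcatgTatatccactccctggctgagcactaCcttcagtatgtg
Bcl2a1a: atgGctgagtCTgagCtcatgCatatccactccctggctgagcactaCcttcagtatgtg
A read from the lower-case stretches alone fits more than 1 of the 3 genes. How the authors assigned such reads is not given in the sources used here, so values of the single Bcl2a1 rows are uncertain and their sum is given too.

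The promoters of the 3 members that fell, Mcl1, Bax and Bcl2l11, are shown because these genes moved in the same direction. Each is the 250 bases before the start of the transcript in the table, 5′ to 3′ on the gene's strand, from RefSeq on GRCm38.p6. They lie at chr3:95658471-95658720 (plus strand), chr7:45466899-45467148 (minus strand) and chr2:128125788-128126037 (plus strand). Capitals mark the GC box GGGCGG, the CCAAT box CCAAT and the E-box CACGTG on either strand. These 3 motifs do not contain one another.
Mcl1: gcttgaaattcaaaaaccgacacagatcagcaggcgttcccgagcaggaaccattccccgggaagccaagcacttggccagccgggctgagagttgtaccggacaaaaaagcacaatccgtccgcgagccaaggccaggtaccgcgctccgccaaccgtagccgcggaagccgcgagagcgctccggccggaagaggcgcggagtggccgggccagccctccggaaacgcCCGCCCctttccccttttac
Bax: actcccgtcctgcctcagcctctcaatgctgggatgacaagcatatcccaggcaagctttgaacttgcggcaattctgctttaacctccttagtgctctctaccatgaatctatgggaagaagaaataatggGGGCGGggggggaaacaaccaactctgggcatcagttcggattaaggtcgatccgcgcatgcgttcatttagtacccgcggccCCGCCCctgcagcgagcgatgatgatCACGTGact
Bcl2l11: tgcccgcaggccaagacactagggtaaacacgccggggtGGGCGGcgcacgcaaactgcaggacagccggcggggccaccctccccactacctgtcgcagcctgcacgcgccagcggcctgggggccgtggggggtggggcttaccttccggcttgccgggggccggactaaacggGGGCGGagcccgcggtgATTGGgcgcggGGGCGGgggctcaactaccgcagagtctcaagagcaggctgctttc
All 3 windows hold a GC box, as do 32.7% of 32851 promoter windows of that length. Of the 9 members with such a window, 7 hold a GC box, among them Bcl2, Bbc3, Bcl2a1b and Bcl2a1d, which were not called. The Bcl2l11 window also has a CCAAT box (33.8% of windows) and the Bax window an E-box (6.02%). The D-box that E4BP4 is known to bind, searched as TTACGTAA or TTATGTAA on either strand, is in 0.931% of windows and in none of the 14 windows at annotated starts of the members that matched, 9 of 10. Pmaip1 had no window in the table.

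RNA levels, in TPM (a unit that scales for depth and transcript length), differed widely between members, and Mcl1 was by far the most abundant. In wild type libraries the order was Mcl1 (591.7 TPM), Bcl2a1b (235 TPM), Bax (120.3 TPM), Pmaip1 (84.5 TPM), Bak1 (52.5 TPM), Bcl2a1d (37.0 TPM), Bcl2l11 (36.7 TPM), Bcl2l1 (25.4 TPM), Bbc3 (6.25 TPM) and Bcl2 (4.59 TPM). Transgenic libraries had the same order. Neighbours in it did not overlap between libraries of a group, except Bcl2a1d and Bcl2l11 in wild type. Mcl1 stood above 99.1% of the 12633 genes tested and Bcl2 above 27.6%. The level and rank of Bcl2 are those of a row of 2123 exon bases (NM_177410). The authors' deposited log2 values, over a span of 176112 bases, put Bcl2 above Bbc3, at wild type means of 8.44 and 7.62. Whether those values scale for length is not given in the sources used here. Mcl1 made up 65.9% to 66.6% of the summed TPM of the 5 pro-survival members in wild type libraries and 63.9% to 65.1% in transgenic ones.

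**Figure D1:**
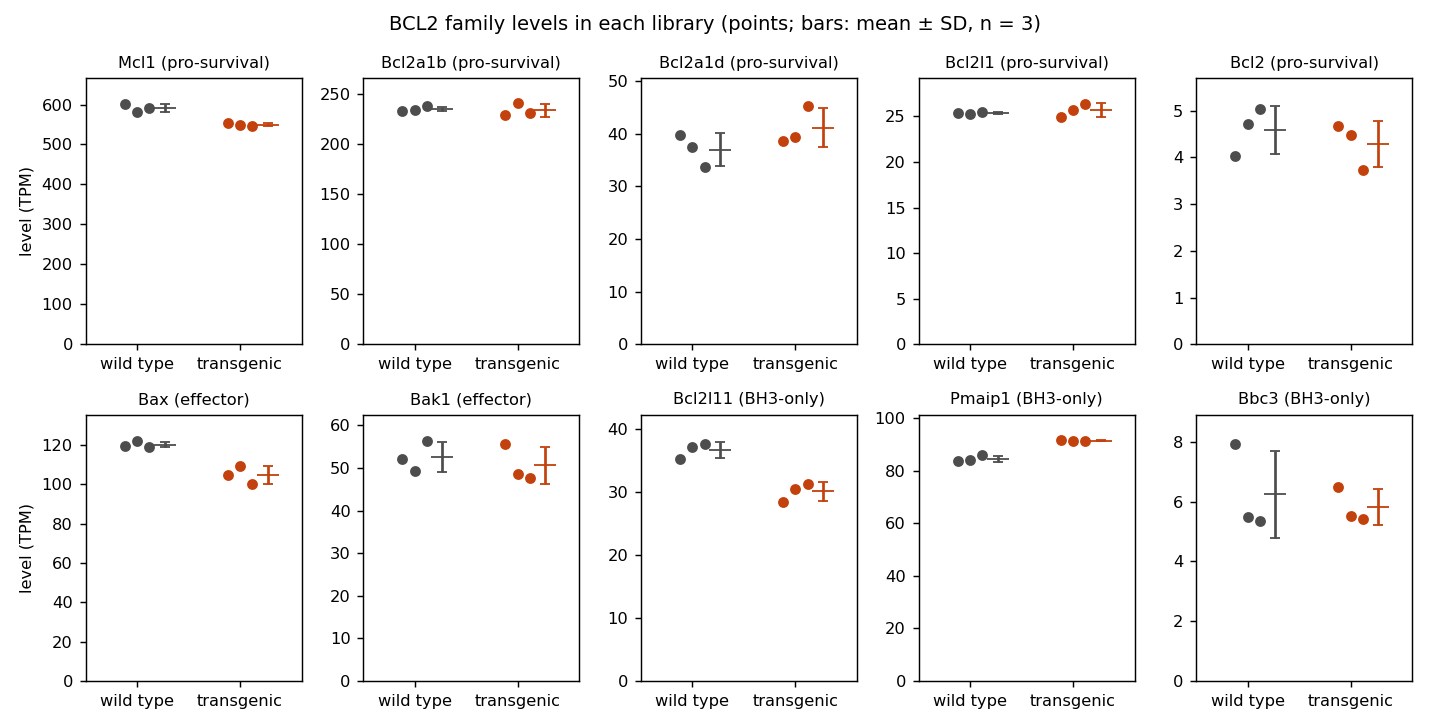
Level of each of the 10 members in TPM (vertical axes, each from 0) in the 3 wild type and 3 transgenic libraries. Points are libraries and bars are the mean ± SD. The groups do not overlap for Mcl1, Bax and Bcl2l11, which are lower in transgenic libraries, and for Pmaip1, which is higher.

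The genotypes were compared to find transcripts whose level moved with E4BP4 overexpression. Nfil3 itself was at 119 ± 1.4 TPM in wild type against 136 ± 3.99 TPM in the transgenic group (mean ± SD over n = 3). It rose by 0.19 ± 0.029 (SE) on the log2(TPM + 1) scale, a ratio of 1.14 (limma adjusted p = 0.00261). The authors' deposited table gives Nfil3 a log2 fold change of 0.09 (adjusted p = 0.0169). Whether the Nfil3 row counts RNA of the transgene was not tested. Of the 10 members 3 fell (Mcl1, Bax and Bcl2l11) and 1 rose (Pmaip1), and the other 6 did not pass the test (limma, adjusted p below 0.05 over all genes tested). Among all genes tested, 13.2% fell and 8.71% rose, 21.9% in all. Groups did not overlap for those 4 members alone, against 39.3% of genes tested (17.1% with transgenic libraries higher and 22.3% lower). The median log2 fold change was -0.06 over the members and -0.01 over all tested genes, and the median size of the change was 0.09 and 0.13. The largest of the 4 changes was 1.22-fold. In these bulk libraries, fewer cells of a type and less RNA per cell cannot be told apart.

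Macrophage markers were abundant in every library, their summed level of 10 genes being 11680 to 11798 TPM in wild type against 12112 to 12192 TPM in transgenic libraries, led by C1qa and C1qb, with 4 of the 10 higher and 3 lower. Markers of other cells moved with genotype in the same libraries. Neutrophil markers summed to 1026 to 1056 TPM in wild type against 434 to 489 TPM in transgenic libraries, with 7 of 10 tested lower and Camp under 1 TPM throughout. They were led by S100a9, at group means of 439 and 187 TPM, and S100a8, at 409 and 154 TPM. Epithelial markers summed to 1031 to 1040 and 570 to 579 TPM, with 7 of 10 lower, led by Car1 at group means of 497 and 164 TPM. Fibroblast and smooth muscle markers gave 165 to 167 and 120 to 124 TPM, with 5 of 10 lower, and endothelial markers 53.5 to 57.2 and 33.4 to 38.4 TPM, with 6 of 7 lower and Tek under 1 TPM. Markers of T, NK and innate lymphoid cells stood at 126.9 to 134 and 146 to 154 TPM, with 5 of 11 higher. Most of the sum was Cd4, at group means of 87.4 and 89.6 TPM, against 6.55 and 8.25 TPM for Lck. Which cells the Cd4 RNA came from was not tested. B and plasma cell markers stood at 230.3 to 244 and 269 to 286 TPM, with 1 of 8 higher. Jchain led them, at group means of 165 and 204 TPM. Dendritic cell markers stood at 72.2 to 78.3 and 93.6 to 104 TPM, with 3 of 8 higher, 1 lower and Xcr1 under 1 TPM. No marker was at 0 in all 6 libraries. The part of these cells in the member changes was not tested.

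Among the pro-survival genes, Mcl1 fell by a small and even amount. It was at 602, 582 and 591 TPM in wild type against 554, 549 and 545 TPM in the transgenic ones. Every transgenic library lay below every wild type library. The difference of -0.11 ± 0.018 (SE) on the log2(TPM + 1) scale, a wild type to transgenic ratio of 1.08, passed the test (limma adjusted p = 0.00422). The Mcl1 row rests on 23498 to 25924 reads per library, more than that of any other member. It is a transcript of 3482 exon bases at chromosome 3, 95658721 to 95663178 (NM_008562, mm10).

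Bcl2a1b, which encodes the A1 protein, an NF-kappaB target of myeloid cells, was at 233, 234 and 238 TPM in wild type against 229, 241 and 231 TPM in transgenic libraries. The groups overlapped, and the 95% interval of the log2 difference ran from -0.07 to 0.05 (limma adjusted p = 0.832). Bcl2a1d stood at 39.8, 37.4 and 33.7 TPM in wild type against 38.6, 39.4 and 45.3 TPM in transgenic libraries. These groups overlapped too, with an interval of -0.03 to 0.33 (limma adjusted p = 0.223). Summed over the 4 Bcl2a1 rows the level was 305 ± 3.48 TPM in wild type against 306 ± 8.07 TPM in the transgenic group (mean ± SD over n = 3). By GENCODE M21, 401 of the 753 exon bases of Bcl2a1b are also exons of Gm29094 on the same strand.

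Bcl2l1, the gene of BCL-XL, was the least variable member in wild type, at 25.4, 25.3 and 25.5 TPM, and stood at 24.9, 25.7 and 26.4 TPM in transgenic libraries. The transgenic values spanned the wild type ones, and the log2 difference lay between -0.08 and 0.11 (95% interval, limma adjusted p = 0.833). Bcl2, the founding member of the family, was at 4.02, 4.71 and 5.03 TPM in wild type against 4.66, 4.48 and 3.72 TPM in transgenic libraries. The groups overlapped, and with 105 to 134 reads per library the interval was wide, -0.34 to 0.18 (limma adjusted p = 0.658). Its row counts a transcript of 2123 exon bases within chromosome 1, 106712165 to 106714290 (NM_177410), whereas the authors' deposited table uses a gene span of 176112 bases (NM_009741) and gives Bcl2 a log2 fold change of -0.05 with an adjusted p of 0.803.

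Of the 2 effectors, Bax fell and Bak1 did not pass the test. Bax was at 119.7, 121.9 and 119.3 TPM in wild type against 105, 109 and 100.1 TPM in transgenic libraries. No transgenic value reached the lowest wild type value. It fell by 0.20 ± 0.035 (SE) on the log2(TPM + 1) scale, a wild type to transgenic ratio of 1.15 (limma adjusted p = 0.00571). Bak1 was at 52.0, 49.2 and 56.2 TPM in wild type against 55.6, 48.6 and 47.7 TPM in transgenic libraries. These groups overlapped (95% interval of the log2 difference -0.21 to 0.11, limma adjusted p = 0.639), and whether the Bak1 and Bax changes differ was not tested. An exon of Ggnbp1 on the opposite strand covers 397 of the 2023 exon bases of Bak1, and Gm45808 shares 192 of the 1576 of Bax on its own strand. The summed level of both effectors was 171 to 176 TPM in wild type against 148 to 161 TPM in transgenic libraries.

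Of the 3 BH3-only members Bcl2l11 fell, Pmaip1 rose and Bbc3 did not pass the test. Bcl2l11, which encodes BIM, a binder of all pro-survival members, was at 35.3, 37.2 and 37.6 TPM in wild type against 28.5, 30.6 and 31.3 TPM in transgenic libraries. The groups did not overlap. It fell by 0.28 ± 0.049 (SE) on the log2(TPM + 1) scale, a wild type to transgenic ratio of 1.22 (limma adjusted p = 0.0055). This was the largest change among the members. Its row is a transcript of 4862 exon bases at chromosome 2, 128126038 to 128162547 (NM_207681, mm10).

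Pmaip1, the gene of NOXA and a p53 target, was at 83.7, 83.9 and 85.9 TPM in wild type against 91.5, 91.2 and 91.4 TPM in transgenic libraries. Every transgenic library was above the highest wild type library. It rose by 0.11 ± 0.026 (SE) on the log2(TPM + 1) scale, a ratio of 1.08 (limma adjusted p = 0.0188). That call was lost on leaving out wild type replicate 1 (limma adjusted p = 0.0532) or 2 (0.0556) and without transgenic replicate 1 (0.0507), 2 (0.0545) or 3 (0.0615). It was also lost on the authors' log2 values (0.0829). Bbc3, the gene of PUMA, was at 7.93, 5.48 and 5.34 TPM in wild type against 6.49, 5.53 and 5.43 TPM in transgenic libraries. Wild type replicate 1 was the highest and the groups overlapped (95% interval of the log2 difference -0.40 to 0.26, limma adjusted p = 0.758).

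The summed level of the 3 BH3-only members overlapped between the groups, at 127 ± 1.19 TPM in wild type against 127 ± 0.804 TPM in the transgenic group (mean ± SD over n = 3), but its make-up differed. Pmaip1 was 65.9% to 66.7% of that sum in wild type and 71.3% to 72.4% in transgenic libraries, and Bcl2l11 27.8% to 29.4% and 22.5% to 24.4%. There were 2.25 to 2.37 Pmaip1 TPM per Bcl2l11 TPM in wild type against 2.92 to 3.22 in transgenic libraries. Per Mcl1 TPM, Bcl2l11 stood at 0.0587 to 0.0640 and 0.0514 to 0.0573 TPM, and Pmaip1 at 0.139 to 0.145 and 0.165 to 0.168 TPM. The groups overlapped for Bax per Mcl1 TPM (0.199 to 0.210 and 0.184 to 0.199) and per Bak1 TPM (2.12 to 2.48 and 1.89 to 2.25). These shares and ratios describe the libraries and were chosen after the member values were seen.

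**Figure D2:**
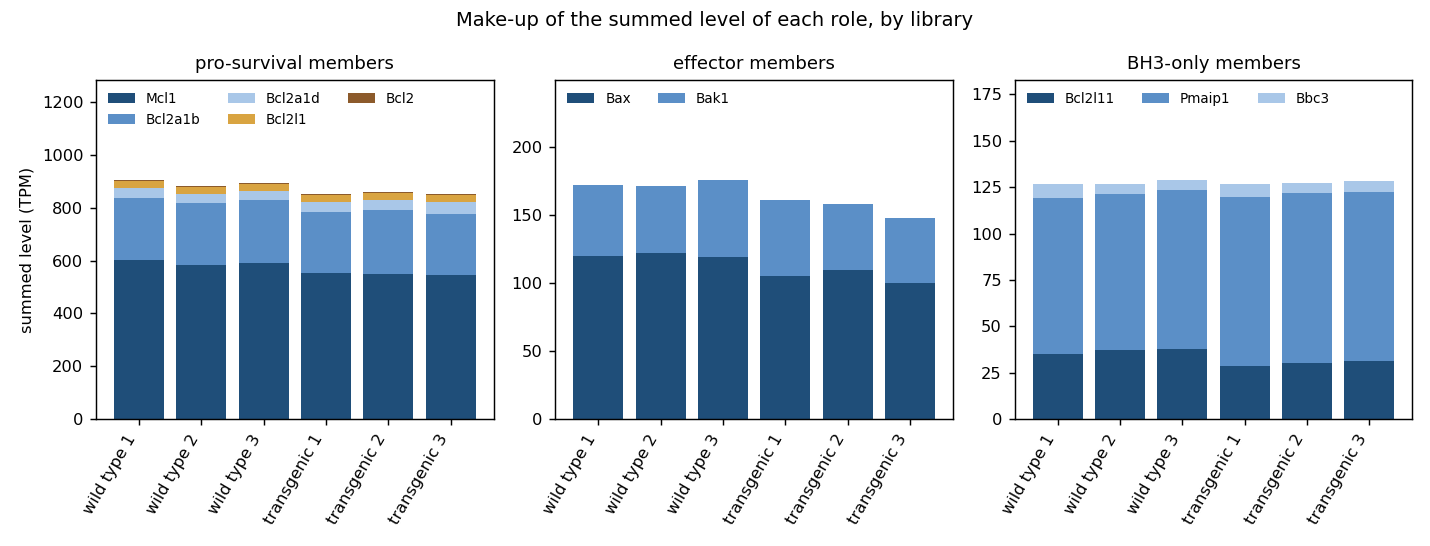
Summed TPM (vertical axes, from 0) of the pro-survival, effector and BH3-only members in each of the 6 libraries, stacked by gene. Mcl1 is the largest part of the pro-survival sum in every library, and the BH3-only sums are alike while the Bcl2l11 part is smaller in the 3 transgenic libraries.

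The authors' deposited table, whose rows carry the length of the whole gene span, calls the same 3 members lower. It gives a log2 fold change of -0.13 for Mcl1 (adjusted p = 1.66e-19), -0.30 for Bax (4.29e-09) and -0.28 for Bcl2l11 (6.38e-11). For Pmaip1 it gives 0.08 with an adjusted p of 0.0703, above the threshold. The lowest adjusted p in the authors' deposited table among the other 6 members is that of Bak1, 0.274. There, 13.2% of the 20884 rows with a fold change were called lower and 11.2% higher. The 2 tables come from the same libraries, so they are not independent.

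**Figure D3:**
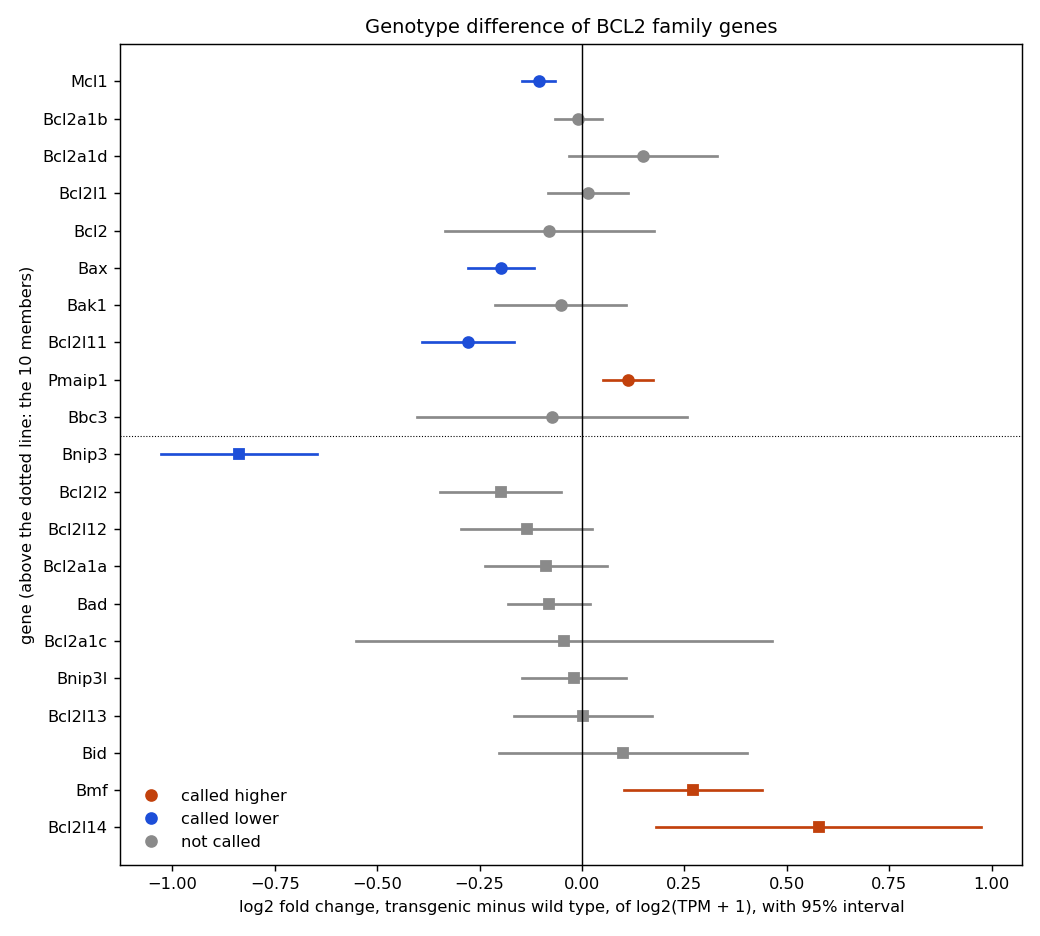
Log2 fold change of log2(TPM + 1), transgenic minus wild type, with its 95% interval (horizontal axis) for the 10 members and the other tested BCL2 family genes. Mcl1, Bax and Bcl2l11 lie below 0, from -0.28 to -0.11, and Pmaip1 above at 0.11, while Bnip3 lies at -0.84.

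Of 16 other genes of the family or related to it, 11 were tested, and 2 rose (Bmf and Bcl2l14) and 1 fell (Bnip3). Over all genes tested, 8.71% rose and 13.2% fell, the shares to set beside the counts of this list and those below. Bnip3, a mitophagy receptor with a BH3-like stretch that is induced by hypoxia, was at 13.9, 13.2 and 14.998 TPM in wild type against 7.28, 8.19 and 6.80 TPM in transgenic libraries. It fell by 0.84 ± 0.082 (SE) on the log2(TPM + 1) scale, more than any member (limma adjusted p = 0.000309). Its relative Bnip3l was at 19.9 and 19.6 TPM (group means, limma adjusted p = 0.831). Bmf, a BH3-only gene, was at 6.53, 7.00 and 7.41 TPM in wild type against 8.21, 8.83 and 8.84 TPM in transgenic libraries (log2 fold change 0.27, limma adjusted p = 0.0330). Bcl2l14 rose from 1.38 ± 0.190 to 2.60 ± 0.811 TPM (mean ± SD over n = 3; limma adjusted p = 0.0471), on 32 to 101 reads per library. The call of Bcl2l14 was lost without any 1 of the 6 libraries (limma adjusted p 0.0527 to 0.120), and that of Bmf without wild type replicate 1 (0.0901) or 2 (0.0757) or transgenic replicate 1 (0.0504), 2 (0.101) or 3 (0.104). With no filter on low values both calls were lost (0.0607 for Bmf and 0.0870 for Bcl2l14).

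Bcl2l2, the gene of the pro-survival BCL-W, was at 12.2 ± 0.280 and 10.5 ± 0.662 TPM (SD, n = 3 each). Its groups did not overlap, but it missed the threshold (limma adjusted p = 0.0618), and it passed without transgenic replicate 1 (0.0499), by voom on recovered reads (0.0417) and on the authors' log2 values (0.0035). Bad and Bid, both BH3-only, were at 31.8 and 30.03 TPM and at 13.2 and 14.1 TPM (limma adjusted p = 0.236 and 0.637). Bcl2a1a was at 29.4 and 27.6 TPM and Bcl2a1c at 3.68 and 3.67 TPM (limma adjusted p = 0.382 and 0.911). Bcl2l12 was at 11.7 and 10.5 TPM and Bcl2l13 at 5.94 and 5.96 TPM (limma adjusted p = 0.210 and 0.981). Bok, Bik, Bcl2l15 and Hrk stood below 1 TPM on average in both groups and were not tested. Bcl2l10 was listed at 0 in all 6 libraries, which allows up to 3 reads, or 0.184 to 0.199 TPM.

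Of the apoptosome and caspase genes, Casp6 fell from 22.6 ± 0.458 to 19.1 ± 0.695 TPM (mean ± SD over n = 3; limma adjusted p = 0.0114). Its call stood without any 1 library (limma adjusted p 0.0244 to 0.0444). Cycs, which encodes cytochrome c, was at 8.58 and 7.41 TPM (limma adjusted p = 0.0897).

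Of 5 inhibitor of apoptosis genes Birc3 rose, from 82.2 ± 1.53 to 89.4 ± 1.70 TPM, and Birc5, the mitotic survivin gene, fell, from 13.6 ± 0.749 to 11.2 ± 1.04 TPM (mean ± SD over n = 3; limma adjusted p = 0.0233 and 0.0441). The Birc3 call was lost on leaving out wild type replicate 3 (0.0741) or transgenic replicate 1 (0.0715) or 3 (0.0631). The Birc5 call was lost without any 1 library except transgenic replicate 2, with a limma adjusted p of up to 0.131, by voom (0.150) and on the authors' log2 values (0.142). Birc2 and Birc6 were at 15.03 and 15.7 TPM and at 13.7 and 13.3 TPM. In the death receptor arm 1 of 9 tested genes fell. It was Tnfrsf1a, the TNF receptor gene, from 181 ± 5.01 to 167 ± 2.40 TPM (mean ± SD over n = 3; limma adjusted p = 0.0222). Its call was lost on leaving out wild type replicate 3 (0.0647) or transgenic replicate 1 (0.0659), 2 (0.0536) or 3 (0.0542) and with upper-quartile scaling (0.0855). Cflar, the caspase 8 inhibitor gene, was at 30.6 and 29.6 TPM, and Ripk3 and Mlkl, of necroptosis, at 36.4 and 33.8 TPM and at 7.59 and 6.20 TPM, none of them past the threshold.

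Among Trp53, which encodes p53, and 12 of its targets and regulators, 12 genes were tested, of which 3 rose and 2 fell. Cdkn1a, the cell cycle inhibitor p21 and a p53 target like Pmaip1, Bbc3 and Bax, was at 237, 233 and 233 TPM in wild type against 186, 184 and 183 TPM in transgenic libraries (log2 fold change -0.34, limma adjusted p = 2.5e-05). Trp53 fell from 59.6 ± 2.06 to 51.5 ± 2.22 TPM and Sesn1 rose from 35.7 ± 0.126 to 42.5 ± 1.98 TPM (mean ± SD over n = 3; limma adjusted p = 0.0117 and 0.0055). Mdm4, a p53 inhibitor, was at 22.7 and 25.8 TPM (limma adjusted p = 0.0322), a call lost without any 1 library except transgenic replicate 1 (up to 0.103). The third gene that rose, Trp53inp1, lies outside the rule for named genes and was chosen after its values were seen, at 11.8 and 13.8 TPM (limma adjusted p = 0.0328). A further list held the voltage-dependent anion channels of the outer membrane and genes of MCL1 turnover. By limma none of its 7 tested genes was called, with 1 higher and 1 lower at an unadjusted p below 0.05 and 1 higher by voom on recovered reads. Fbxw7 and March5, ubiquitin ligase genes, were at 5.73 and 7.18 TPM and at 33.4 and 29.1 TPM (limma adjusted p = 0.0551 and 0.0543). Both passed without wild type replicate 2 (0.0292 and 0.0356) and on the authors' log2 values (0.0026 and 0.0459). Fbxw7 also passed with upper-quartile scaling (limma adjusted p = 0.0385) and by voom on recovered reads (0.0062), and March5 with the filter of 5 TPM (0.0413). Vdac1 was at 74.3 and 69.0 TPM and Vdac3 at 25.2 and 23.7 TPM, neither past the threshold.

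**Figure D4:**
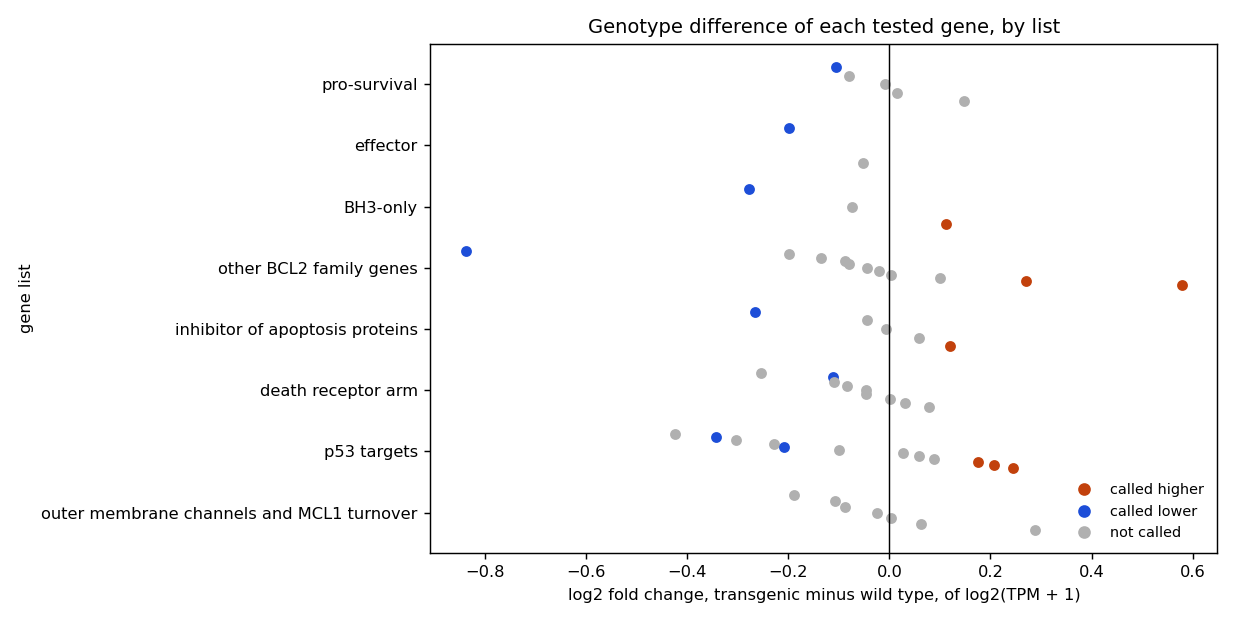
Log2 fold change of log2(TPM + 1), transgenic minus wild type (horizontal axis), of every tested gene in the 3 member roles and 5 of the 6 further lists; each point is a gene, and the apoptosome and caspase list is not drawn. Called genes lie on both sides of 0 in 3 of the 5 further lists drawn and in the BH3-only role, and Bnip3 at -0.84 is the farthest from 0.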

How the data were processed

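RNA-seq of 6 libraries was analysed. Per the labels' protocols, polyadenylated RNA was taken from 20 ng of total RNA. Per the submitters' processing notes, bcl2fastq, STAR, HOMER 4.11.1, DESeq2 and mm10 were used, in an order and with settings not given in the sources used here; whether strand was kept is also not given. The authors deposited TPM per gene and, in a second table, log2 values per library with each gene's fold change on the log2 scale, p-value and adjusted p.

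Here limma-trend (limma 3.58.1, R 4.3.3) was fitted to log2(TPM + 1) with genotype as the only term, over the 12633 genes whose group mean reached 1 TPM in either genotype, with Benjamini-Hochberg adjustment and a threshold of 0.05. This scale understates the change of low genes. The procedure was tested on simulated data. Of these genes 1100 were higher and 1666 lower. Called genes were 39.8% higher, or 52.0% with upper-quartile scaling, which moved the median log2 fold change from -0.01 to 0.02.

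Multiplying TPM by exon length gave whole multiples of a constant of each library (tolerance 0.1 reads, up to 1000 reads), which gave 13973424 to 15063958 reads in genes, of 17247798 to 18904786 in the file headers. The share of header reads in genes was 81.2% to 81.3% in wild type and 79.5% to 79.7% in transgenic libraries. The columns sum to 544843 to 545319 TPM in wild type and 543612 to 544207 TPM in transgenic libraries, for a reason that was not tested. The part of these library differences in the member changes was not tested. Floors cover counting error only. The members, lists and tests were chosen with earlier results of these data known. The text names the 10 members, Nfil3, the other family genes, up to 4 genes with the lowest p of each pathway list and leading markers; some genes of the caspase list are not reported here. Alternatives were a pseudocount of 0.1 TPM, no filter or one of 5 TPM, upper-quartile scaling, a replicate block, the authors' log2 values, voom on the recovered reads (chosen after seeing the data) and each library left out in turn.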

Additional observations from a re-analysis of the deposited data

How the results depend on the processing

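The falls of Mcl1, Bax and Bcl2l11 kept their direction and their call under all 13 alternatives, with a highest limma adjusted p of 0.0333, 0.0241 and 0.0231 and log2 fold changes of -0.13 to -0.07, -0.25 to -0.16 and -0.31 to -0.24. The count of members higher, 1, became 0 on the authors' log2 values and was 0 to 1 with 1 library left out. Genes higher numbered 704 to 883 with 1 library left out, and genes lower 2783 on the authors' log2 values over the gene span. With the replicate block there were 922 genes higher and 1457 lower, and 1 member higher and 3 lower. Nothing in the labels pairs libraries by replicate number, so the numbers were not taken to pair them. Deviations from the group mean correlated at -0.01, -0.04 and 0.03 between same-numbered libraries. Such deviations sum to 0 within a group of 3, so these values cannot show that pairing is absent. The block ended the calls of Bmf (0.0514), Bcl2l14 (0.0830) and Mdm4 (0.0508).

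Signs reversed, over these alternatives, for genes that were not called. On the authors' log2 values the log2 fold change was 0.0046 for Bcl2a1b, -0.0253 for Bcl2l1 and -0.00293 for Bcl2l13, and with upper-quartile scaling 0.0286 for Bcl2a1b and 0.0158 for Bnip3l. With 1 library left out it ran from -0.161 to 0.0862 for Bbc3, -0.155 to 4.31e-05 for Bcl2, -0.0305 to 0.00581 for Bcl2a1b, -0.29 to 0.157 for Bcl2a1c, -0.00457 to 0.0365 for Bcl2l1, -0.0176 to 0.0318 for Bcl2l13, -0.0452 to 0.182 for Bid, -0.00992 to 0.116 for Birc2 and -0.0593 to 0.0181 for Bnip3l. Birc5 lost its call with no filter (0.0768) and with upper-quartile scaling (0.0674). On the authors' log2 values Cycs (0.0195), Ripk3 (0.0346) and Vdac1 (0.0141) passed. Of 414 results of 32 other genes followed over the alternatives, 339 kept direction and call, 51 lost a call, 13 gained one and 11 reversed; the cause was not tested. Voom on recovered reads, chosen after seeing the data, called 1637 genes higher and 2071 lower. The rows of Bcl2 and Bbc3, at 105 to 192 reads per library, were limited most by depth among the members. The Bcl2 row, which counts a short transcript, has no value with the filter of 5 TPM.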
